A study of Sus scrofa with 70 samples.

Results

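The epididymis of the BMI pig, the Banna mini-pig inbred line, was compared with that of the DSE pig, the Diannan small-ear pig, which is not inbred. The members are the 6 RNA-seq libraries labelled as epididymis, 3 from DSE and 3 from BMI boars aged 12 months, of 70 samples in the series. The series also holds 24 RNA-seq libraries from the testis and the vesicular, prostate and bulbourethral glands of both breeds, and 1 epididymis library a breed of full-length reads (Iso-seq), which were used for comparison. No treatment was given. The labels name neither the segment of the epididymis, nor which replicates came from which boar, nor whether glands with 1 number came from 1 boar, so the tests below measure the spread between libraries. Levels are TPM, each transcript's share of the RNA of its library after division by its length, at transcript level or summed over the transcripts of a gene.

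The epididymis is the long coiled duct that carries sperm from the testis, in which they mature and are stored. Its epithelium secretes proteins into the lumen in an order along the duct, so that the head, body and tail make different proteins. Principal, clear and basal cells line the duct, which is wrapped in smooth muscle. The mitochondria, germ cells and blood cells of a sample add RNA of their own.

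Sequences of some of the genes and transcripts that differed are given before the values. CES1, a carboxylesterase that hydrolyses esters in the endoplasmic reticulum, is annotated as a gene on chromosome 6 (Sscrofa11.1, chr6:29884250-29912905, minus strand) and again on an unplaced scaffold (bases 36075 to 66041, plus strand). Both have 13 coding exons. Of these, 8 have equal length in both copies, and their 1102 bases differ at 15, an identity of 98.6%. No base differs in 5 of the 8 exons, so reads from them fit both copies. The third coding exon holds 8 of the differences, which are in capitals below. It lies at chr6:29903924-29904068 on the minus strand and at bases 46303 to 46447 of the scaffold on the plus strand, both in the reference genome.
CES1, chromosome 6: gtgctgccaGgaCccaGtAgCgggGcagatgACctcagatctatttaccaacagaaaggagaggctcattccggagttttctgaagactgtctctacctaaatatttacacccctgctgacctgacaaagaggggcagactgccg
CES1, scaffold: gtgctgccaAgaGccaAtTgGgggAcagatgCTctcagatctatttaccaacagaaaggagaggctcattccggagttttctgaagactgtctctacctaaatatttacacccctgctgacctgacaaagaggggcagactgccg

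Next are the stretches by which 3 transcripts, found almost solely in 1 breed, differ from the other transcripts of their gene. The ANKRD10 transcript of DSE boars lacks 29 bases 3′ of the coding sequence (chr11:77323890-77323918, minus strand), which the annotation treats as an intron. In the SNX24 transcript of BMI boars, 21 bases are absent in the same way (chr2:126507017-126507037, plus strand). The ADAM17 transcript of BMI boars has a last exon of its own, of which the first 50 bases are coding (chr3:126841927-126841976, plus strand).
ANKRD10, bases absent: gtggagggcagagggcgcccagctccacg
SNX24, bases absent: ttagcttctaacgtcagcaca
ADAM17, coding bases of the last exon: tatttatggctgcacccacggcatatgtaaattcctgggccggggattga

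The 6 libraries did not separate by breed on the first 2 principal components. On the first principal component of log2(TPM + 1), which held 51.1% of the variance, DSE replicates scored 104.7, −74.3 and −22.6 and BMI replicates −75.9, 26.4 and 41.7. On the third, with 17.2% of the variance, the breeds lay narrowly apart, at 40.7, 11.9 and 16.8 in DSE and −0.43, 10.3 and −79.2 in BMI. The highest correlation of any pair was between BMI replicate 1 and DSE replicate 2 (r = 0.953), and the median r was 0.871 between breeds and 0.860 within a breed. DSE replicate 1, the library with the lowest RNA integrity in the study, stood apart also in the levels: transcripts of 4374 to 24461 bases were lower than in the other libraries by a median log2 difference of −0.87, against −0.33 for those of 170 to 1971 bases. BMI replicate 3 followed at −0.50 for the long transcripts, and the other 4 libraries lay between 0.19 and 0.56. The 10 genes with the highest TPM took 26.6% of the total in DSE replicate 1, 23.5% in BMI replicate 3 and 9.94% to 13.4% in the others. The part of these library differences in the values below was not tested, and several counts and most list medians are also given without DSE replicate 1.

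Markers of the epididymis were present but spread widely within each breed. GPX5, a secreted glutathione peroxidase, was at 928, 194 and 9.24 TPM in DSE replicates 1 to 3 and at 13.7, 8449 and 4.42 TPM in BMI replicates 1 to 3. CRISP1, a secreted protein that binds to sperm, was at 21.3, 1100 and 2659 TPM in DSE and at 1141, 2759 and 1891 TPM in BMI. ADAM7, a membrane protein of the epididymal epithelium, was high in every library, with 468 to 2315 TPM in DSE and 648 to 2780 TPM in BMI. All of these overlapped between breeds, and single libraries set the extremes. CST11, an epididymal cystatin, was at 8045, 0.482 and 719 TPM in DSE and at 0.736, 5074 and 6.33 TPM in BMI. The same libraries that were high in GPX5 and CST11, DSE replicate 1 and BMI replicate 2, were the highest for NPC2, a cholesterol-binding secreted protein, at 32204 and 18103 TPM. In bulk tissue, fewer cells of a type and less RNA per cell cannot be told apart.

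No gene passed the test between the breeds in epididymis. Of 15301 genes with at least 1 TPM in at least 3 of the 6 libraries, 0 were called higher in DSE (0.0%) and 0 higher in BMI (0.0%) by limma, where a call needed an adjusted p (Benjamini-Hochberg) under 0.05 and an absolute log2 fold change of 1 or more. The smallest adjusted p from limma was 0.255. At an unadjusted p below 0.05 there were 288 genes (1.88%), 143 higher in DSE and 145 higher in BMI, and leaving out 1 library moved this count to between 187, without BMI replicate 3, and 447, without BMI replicate 1. The median absolute log2 fold change was 0.24, and the median standard error of the breed difference was 0.46. All 3 DSE libraries lay above all 3 BMI libraries for 416 genes (2.72%), of which 126 had a fold change of at least 2 between the breed means (0.823%), and below them for 394 genes (2.57%), of which 128 differed at least 2-fold (0.837%). Without DSE replicate 1, when fewer libraries had to lie apart, 10.6% of genes were separated as higher in DSE and 4.56% as higher in BMI. When the spread was instead estimated in 1 fit of all 30 RNA-seq libraries, 122 genes passed, 68 higher in DSE and 54 higher in BMI. The spread in that fit is estimated from all 5 glands.

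**Figure D1:**
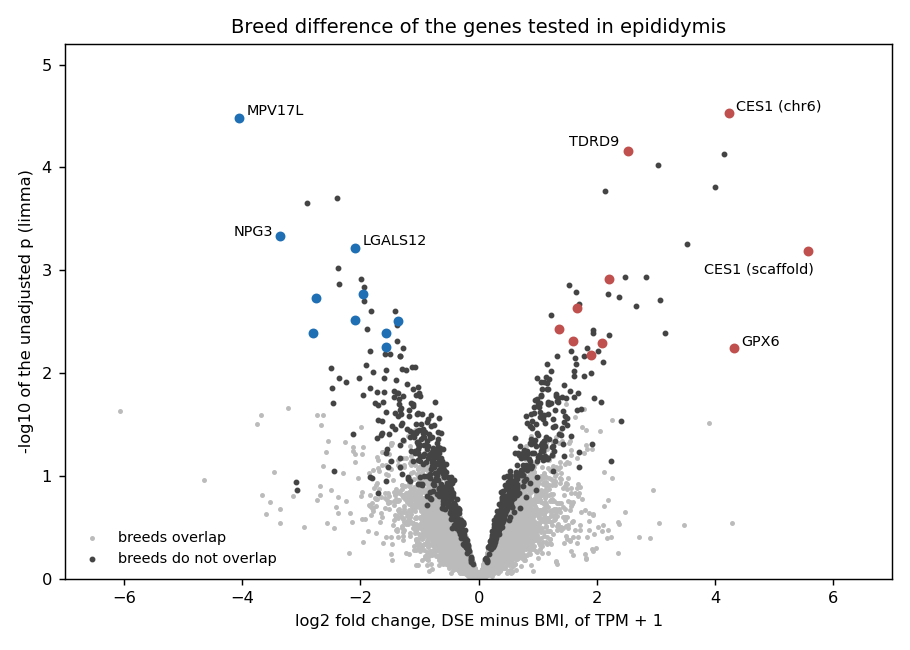
Each point is 1 of the 15301 genes tested, with the log2 fold change of TPM + 1 (DSE minus BMI) on the x axis and −log10 of the unadjusted limma p on the y axis. Dark points are genes whose breeds do not overlap, and the coloured points are the 20 genes described in the text, red for higher in DSE and blue for higher in BMI. CES1 on chromosome 6 and MPV17L have the smallest p, and no point passes after adjustment.

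Genes higher in DSE were led by CES1. The chromosome 6 copy was at 157, 111 and 63.9 TPM in DSE and at 4.30, 6.96 and 3.13 TPM in BMI, or 111 ± 46.5 against 4.797 ± 1.96 (SD, n = 3 each). The lowest DSE library was 9.19 times the highest BMI library, and the log2 fold change was 4.23 (SE 0.44, limma adjusted p = 0.255). The scaffold copy was at 248, 29.9 and 16.2 TPM in DSE and at 0, 0.228 and 0 TPM in BMI, with a log2 fold change of 5.57 (SE 0.95, limma adjusted p = 0.769). Its DSE libraries spread widely, with replicate 1 far above the others, but none overlapped with BMI. Because the copies share identical exons, the split of reads between them is uncertain, and the sum was taken too over both copies and 2 entries without a symbol on the same scaffold, 1 of which the annotation fuses with the scaffold copy. It was 412, 149 and 83.9 TPM in DSE and 5.33, 9.81 and 4.02 TPM in BMI, a log2 fold change of 4.63. Other carboxylesterases did not separate the breeds: CES5A, the epididymal member of the family, was at 6.74, 521 and 1187 TPM in DSE and at 486, 1724 and 1703 TPM in BMI.

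TDRD9, a helicase of the piRNA pathway of germ cells, on an unplaced scaffold, was at 5.98, 5.01 and 4.58 TPM in DSE and at 0.0229, 0.138 and 0.0355 TPM in BMI (log2 fold change 2.53, SE 0.30, limma adjusted p = 0.282). BMI libraries were close to 0 and DSE libraries close to each other. SLC39A2, a zinc importer, was at 4.01, 2.46 and 1.49 TPM in DSE and at 0.0772, 0.239 and 0 TPM in BMI. GPX6, a glutathione peroxidase on the minus strand of chromosome 7 that overlaps GPX5 on the plus strand, was at 219, 158 and 20.5 TPM in DSE and at 13.9, 2.78 and 0.646 TPM in BMI (log2 fold change 4.33, SE 1.10). Whether the quantification used strand is not given in the sources used here, so reads of both genes may not be told apart. GPX5 itself was highest in BMI replicate 2, where GPX6 was at 2.78 TPM.

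SLA-1, a classical class I molecule of the pig major histocompatibility complex, was at 157, 243 and 172 TPM in DSE and at 91.8, 22.2 and 39.7 TPM in BMI (191 ± 45.8 against 51.3 ± 36.2, SD, n = 3 each; log2 fold change 2.08, SE 0.52). NUPR1, a transcriptional regulator induced by stress, was at 783, 656 and 288 TPM in DSE and at 234, 126 and 93.6 TPM in BMI (log2 fold change 1.91, SE 0.50). LRMDA, a leucine-rich repeat protein of melanocyte differentiation, was at 32.7, 23.9 and 17.3 TPM in DSE and at 6.84, 3.95 and 3.01 TPM in BMI. In each of these 3 genes the breeds did not overlap, and BMI replicate 1 was the BMI library nearest to DSE. For SLA-1 the lowest DSE library was 1.71 times the highest BMI library, and for NUPR1 1.23 times. The separation of SLA-1 rested on 1 of its 2 transcripts, described below. KLHL40, a Kelch protein of striated muscle, and DRC7, a subunit of the dynein regulatory complex of cilia and flagella, were low in every library, with log2 fold changes of 1.36 and 1.601. The limma adjusted p was 0.9999 for these 5 genes, for SLC39A2 and for GPX6.

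Genes higher in BMI were led by MPV17L, a membrane protein related to MPV17 of mitochondria and peroxisomes (chr3:7427395-7441577). It was at 0.0365, 0.0209 and 0.128 TPM in DSE and at 26.8, 10.3 and 16.2 TPM in BMI, or 0.0618 ± 0.0579 against 17.8 ± 8.36 (SD, n = 3 each). All DSE libraries were near 0 and all BMI libraries well above them, and the log2 fold change was −4.05 (SE 0.43, limma adjusted p = 0.255). NPG3, a protegrin of the antimicrobial peptides of pig neutrophils, was listed at 0 in the 3 DSE libraries and was at 3.54, 14.9 and 13.9 TPM in BMI (limma adjusted p = 0.708). Protegrin genes are near-identical copies, so the assignment of reads to NPG3 is uncertain. LGALS12, a galectin of fat cells, was at 0.323, 0.440 and 0.408 TPM in DSE and at 7.24, 3.66 and 4.38 TPM in BMI (log2 fold change −2.09, SE 0.35, limma adjusted p = 0.769).

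A pair of neighbouring genes of small calcium-binding proteins on chromosome 4 was higher in BMI. S100A5 was at 0.469, 0.452 and 1.82 TPM in DSE and at 4.96, 16.1 and 17.2 TPM in BMI (log2 fold change −2.76, SE 0.56). S100A2 was at 5.36, 13.3 and 33.8 TPM in DSE and at 109, 60.3 and 158 TPM in BMI (log2 fold change −2.80). In both, DSE replicate 3 was the DSE library nearest to BMI. SH3BGRL2, a small protein of the thioredoxin fold, was the tightest of these genes, at 6.87, 9.22 and 7.48 TPM in DSE and at 23.0, 22.03 and 19.8 TPM in BMI (log2 fold change −1.36, SE 0.31). CTSZ, a lysosomal carboxypeptidase, was at 49.6, 99.97 and 89.8 TPM in DSE and at 318, 156 and 237 TPM in BMI. DACT2, an inhibitor of Wnt signalling that binds Dishevelled, was at 0.603, 1.18 and 2.09 TPM in DSE and at 7.28, 9.18 and 6.397 TPM in BMI. The log2 fold change was −1.56 for CTSZ, −1.95 for DACT2, −2.08 for TMEM179 and −1.56 for SMIM9, and the limma adjusted p of these 4 genes, of both S100 genes and of SH3BGRL2 was 0.9999.

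**Figure D2:**
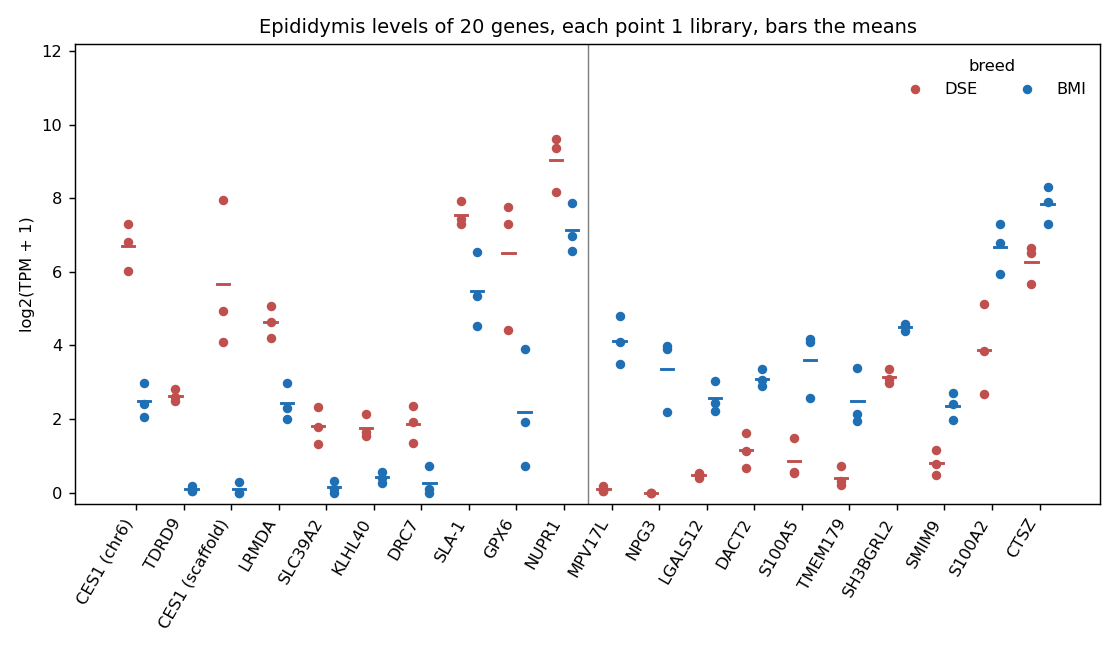
Log2(TPM + 1) of the 20 genes described in the text in the 6 epididymis libraries, with 1 point per library and a bar for the mean of the 3 libraries of a breed. The 10 genes to the left of the vertical line were higher in DSE (red) and the 10 to the right higher in BMI (blue), and in none do the breeds overlap, which was a condition for choosing them.

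Genes without a symbol were also separated between the breeds, some in epididymis alone and some in other glands too. ENSSSCG00000038183 (chr17:34922244-34924314) was listed at 0 in the 3 DSE libraries and was at 6.88, 3.62 and 10.6 TPM in BMI (log2 fold change −2.91, limma adjusted p = 0.374). It was also listed at 0 in all 24 libraries of the other glands. ENSSSCG00000042192 was at 2.90, 3.19 and 4.18 TPM in DSE and listed at 0 in BMI (limma adjusted p = 0.371). Its breeds were separated the same way in each of the other glands.

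The breed difference in epididymis was then compared with the mean breed difference in the other 4 glands, in 1 limma fit of the 30 libraries. It differed for 26 genes, with a more positive difference (DSE minus BMI) in epididymis for 14 (0.0915%) and a more negative one for 12 (0.0784%), and 14 of the 26 had a symbol. In 25 of the 26 the breeds did not overlap in epididymis and the difference was larger there, the exception on both counts being C16orf89 with log2 fold changes of 1.69 in epididymis and −2.02 in the others. Only genes that passed the filter on low values in the epididymis libraries were tested, so genes low in epididymis that differ more in other glands could not enter, and this share is in part set by the filter. MPV17L differed the most surely among genes with a symbol, by −4.20 on the log2 scale (SE 0.37, limma adjusted p = 2.61e-07), with a mean of 0.15 in the other glands. In bulbourethral gland it went the opposite way, at 14.0, 6.64 and 6.84 TPM in DSE and at 1.02, 3.39 and 4.76 TPM in BMI, without passing there (limma adjusted p = 0.632). In testis MPV17L went the same way as in epididymis, at 0.845, 0.193 and 1.11 TPM in DSE and at 2.09, 2.23 and 2.24 TPM in BMI. It did not pass there either (limma adjusted p = 0.205). Both CES1 copies differed too, the chromosome 6 copy by 3.98 (SE 0.43, limma adjusted p = 7.82e-06) and the scaffold copy by 5.21 (SE 0.59, limma adjusted p = 1.57e-05). Summed CES1 in testis was not higher in DSE, at 64.4, 55.5 and 52.7 TPM against 93.8, 79.4 and 108 TPM in BMI, and it was at most 0.194 TPM in vesicular and prostate gland. In bulbourethral gland it was at 6.69, 3.26 and 7.82 TPM in DSE and at 0.964, 2.21 and 0.302 TPM in BMI.

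NPG3 differed by −3.57 (SE 0.43, limma adjusted p = 4.65e-05) and S100A5 by −2.63 (SE 0.37, limma adjusted p = 4.55e-04), the latter at an adjusted p of 0.266 with a pseudocount of 0.1. DACT2 at −1.74, SMIM9 at −1.77 and TMEM179 at −1.37 were also among the 26. So were KRT24, an epithelial keratin, at 2.38, and GALNT4, which starts O-linked glycans, at −2.84. The spread in this fit was pooled over glands, and for genes near 0 elsewhere it is smaller than that between the epididymis libraries. The count was 62 without DSE replicate 1 and between 17, without BMI replicate 3, and 110, without DSE replicate 3, when any library was left out. It was 11 with 1 weight per gland and 11 with a pseudocount of 0.1.

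Several of the 20 genes also differed between breeds in other glands. In tests within a gland, TDRD9 passed in prostate gland, where 0.306% of genes passed as higher in DSE (log2 fold change 3.58, limma adjusted p = 0.024) and in bulbourethral gland, where 0.0219% did (3.08, limma adjusted p = 0.031), while in testis it was at 19.3, 8.89 and 21.8 TPM in DSE and at 23.4, 27.7 and 24.8 TPM in BMI. SLA-1 passed within testis, where 0.221% passed as higher in DSE (2.26, limma adjusted p = 0.0083) and prostate gland (1.97, limma adjusted p = 0.048). Among genes higher in BMI, TMEM179 passed within testis, where 0.398% did (−2.88, limma adjusted p = 0.0029) and CTSZ within vesicular gland, where 0.954% did (−1.36, limma adjusted p = 0.044). GPX6 passed in the opposite direction within vesicular gland, at 42.1, 101 and 50.2 TPM in DSE and at 461, 553 and 384 TPM in BMI (−2.93, limma adjusted p = 0.0011). It was the single gene of the 20 called the opposite way within another gland.

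**Figure D3:**
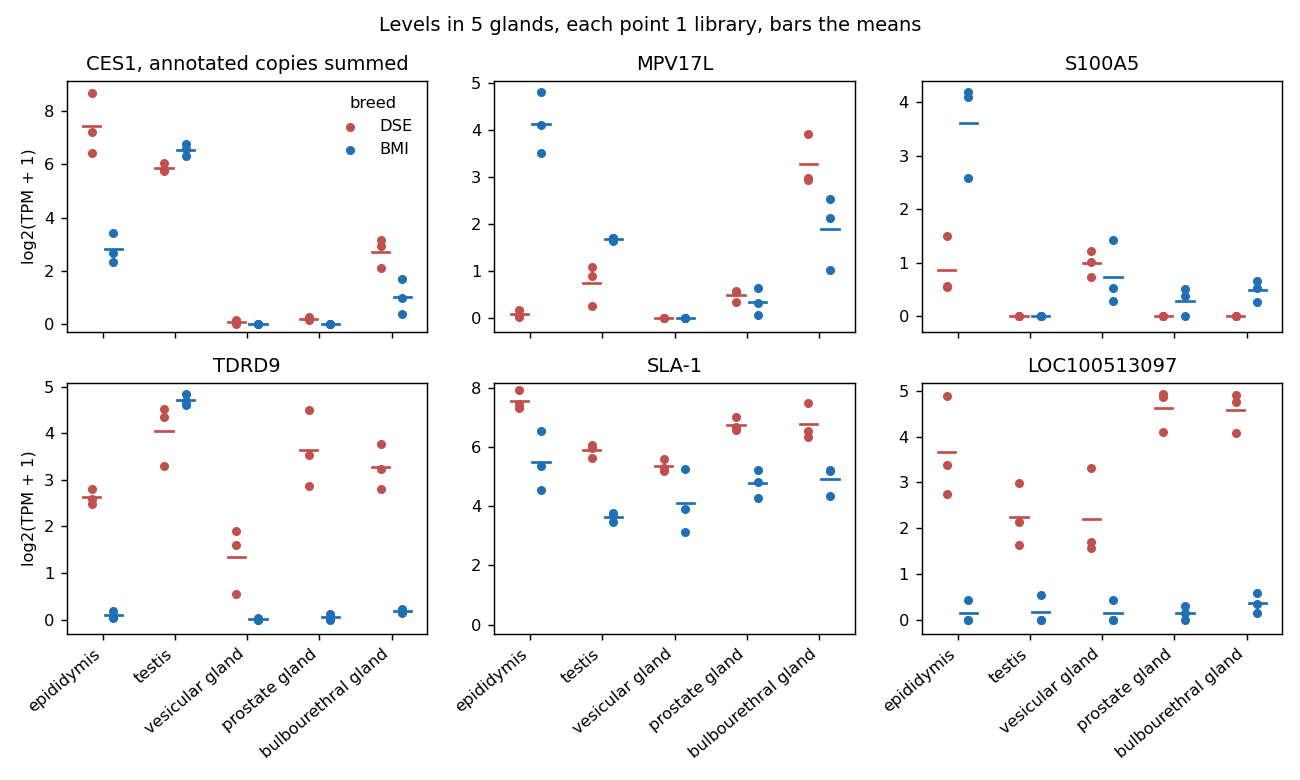
Log2(TPM + 1) of 6 genes or gene sums in the 5 glands, with 1 point per library, red for DSE and blue for BMI, and a bar for the mean of 3. Summed CES1, MPV17L and S100A5 (top) have their widest breed gap in epididymis, whereas TDRD9, SLA-1 and LOC100513097 (bottom) are higher in DSE in most glands, except that TDRD9 is higher in BMI in testis and SLA-1 overlaps in vesicular gland.

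Genes that differed between breeds over the other glands mostly had the same sign in epididymis. A limma contrast over the 24 libraries of the other glands, chosen after seeing the data, called 72 genes, 41 higher in DSE (0.268%) and 31 higher in BMI (0.203%). In epididymis 61 of the 72 had the same sign. All 3 DSE libraries lay above all 3 BMI libraries for 21 of the 41 (51.2%, against 2.72% of all genes), and all 3 BMI libraries lay above DSE for 12 of the 31 (38.7%, against 2.57% of all genes), with 0 of the 72 separated the opposite way. The medians of the log2 fold change in epididymis were 1.34 and −0.97, beside −0.00 for all genes. Without DSE replicate 1, 62 of the 72 had the same sign and 40 were separated in the same direction, against 33 with all libraries, beside 10.6% of all genes separated as higher in DSE and 4.56% as higher in BMI. Only genes that passed the filter on low values in the epididymis libraries were tested. A gene near 0 in 1 breed could enter only where all 3 epididymis libraries of the other breed reached 1 TPM. The shares without overlap, and the 0 separated the opposite way, are thus in part set by the filter. Whether the same boars gave the glands is not stated, so these glands may not be independent animals.

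SPINK2, an acrosomal protease inhibitor, was the most abundant of the shared genes with a symbol, at 1504, 1192 and 808 TPM in DSE and at 218, 186 and 680 TPM in BMI (log2 fold change 1.901, limma adjusted p = 0.9999). The lowest DSE library was close to the highest BMI library. WDR54, a WD-repeat protein, was tighter, at 8.34, 7.96 and 9.79 TPM in DSE and at 18.8, 20.8 and 18.8 TPM in BMI (log2 fold change −1.08). ITIH3, which binds hyaluronan, was higher in DSE with a log2 fold change of 1.40, and DUSP23, a phosphatase, and SLC49A3, a transporter, were higher in BMI at −0.97 and −1.42. None of these passed in epididymis alone.

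Several genes of the major histocompatibility complex on chromosome 7 were among the genes higher in DSE. Of 104 genes tested between chr7:22824426 and 25182707, 5 were at least 2-fold higher in DSE without overlap (4.81%, against 0.796% of genes elsewhere) and 0 higher in BMI (0.0%, against 0.842%). These shares are a description: the region was set after SLA-1 was seen among the leading genes and starts with it, so SLA-1 is counted among the 5, and 3 of the 5, SLA-1 included, overlap in position and may share reads. LOC100513097 was at 5.68, 28.4 and 9.49 TPM in DSE and at 0.357, 0 and 0 TPM in BMI, and it passed within vesicular gland, where 0.27% of genes passed as higher in DSE, and within prostate and bulbourethral gland. A gene that the annotation fuses from 2 identifiers beside SLA-1 was at 85.9, 131 and 103 TPM in DSE and at 14.1, 3.12 and 3.68 TPM in BMI (log2 fold change 4.002, limma adjusted p = 0.371), and it passed in all 4 other glands. Class I genes are near-identical to each other and vary between pigs, so reads that do not match the reference allele or match several genes leave these levels uncertain.

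At transcript level, 34693 transcripts were tested and 0 were called higher in DSE (0.0%) and 0 higher in BMI (0.0%), with 1057 at an unadjusted p below 0.05 (3.05%) and a smallest limma adjusted p of 0.0552. The breeds did not overlap and their means on the log2 scale differed at least 2-fold for 570 transcripts higher in DSE (1.64%) and 637 higher in BMI (1.84%). With limma's array weights, which give less weight to libraries far from their group, 31 passed, and in 1 fit of all 30 libraries 473 passed. The smallest p belonged to 1 of the 2 transcripts of SLA-1, at 72.1, 55.6 and 53.7 TPM in DSE and at 0.154, 0.102 and 0 TPM in BMI (log2 fold change 5.81, SE 0.40). In the other 4 glands it was at 10.5 to 43.0 TPM in the 12 DSE libraries and at most 0.214 TPM in the 12 BMI libraries. Its annotated introns occur in no other transcript of the gene, and 1 of its exons, of 27 bases, lies between introns of 16343 and 20850 bases. In epididymis it made up 72.1 of the 157 TPM of SLA-1 in DSE replicate 1. The rest of the gene there lay below that in BMI replicate 1, where the whole gene was at 91.8 TPM. Without this transcript the breeds thus overlapped in SLA-1.

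For several genes a transcript was found in 1 breed while the breeds overlapped in the gene's total. The ANKRD10 transcript without the 29 bases shown above, of an ankyrin-repeat protein, was at 33.3, 23.5 and 17.2 TPM in DSE and listed at 0 in BMI (limma adjusted p = 0.139). It was present in all 12 DSE libraries of the other glands, at 2.84 to 22.7 TPM, and listed at 0 in their 12 BMI libraries. The gene as a whole, with 15 transcripts, had a log2 fold change of 0.26 (SE 0.43). The ADAM17 transcript with its own last exon, of the sheddase that releases tumour necrosis factor from the membrane, was listed at 0 in DSE and was at 7.78, 10.9 and 8.08 TPM in BMI (limma adjusted p = 0.239). In the other glands it was at 0.651 to 6.55 TPM in the 12 BMI libraries and at most 0.0963 TPM in DSE, and the whole gene had a log2 fold change of −0.86 (SE 0.43). The SNX24 transcript without the 21 bases, of a sorting nexin that binds phosphoinositides, was listed at 0 in DSE and was at 11.9, 11.7 and 7.08 TPM in BMI (limma adjusted p = 0.239). It was listed at 0 in the 12 DSE libraries of the other glands and found in 11 of their 12 BMI libraries. With SLA-1, these were the named transcripts separated the same way in at least 3 other glands.

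In the ANKRD10 and SNX24 genes the absent bases are annotated as introns of 29 and 21 bases, neither of which both begins with GT and ends with AG. Of the transcripts with any annotated intron of at most 50 bases, 39 of 1245 (3.13%) differed at least 2-fold without overlap. Of the rest, 1168 of 33448 (3.49%) did. This count includes introns shared with other transcripts of the gene, so it cannot speak for introns that set a transcript apart. The ATP2A2 transcript named below is also set apart from the other transcripts of its gene by such an intron, of 3 bases (chr14:31742934-31742936, plus strand).

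For the other transcripts named, the breeds were separated in the same direction in at most 1 other gland. ARSD, an arylsulfatase on the X chromosome, had 1 transcript at 11.06, 25.01 and 15.1 TPM in DSE and listed at 0 in BMI, and another listed at 0 in DSE and at 12.5, 10.3 and 26.2 TPM in BMI. The whole gene had a log2 fold change of −0.04, and the breeds were separated in the same direction in 1 and in 0 of the other glands. A TOLLIP transcript of 386 bases, of an adaptor that dampens Toll-like receptor signalling, was at 0.642, 0 and 0 TPM in DSE and at 80.9, 45.7 and 31.7 TPM in BMI (limma adjusted p = 0.139), while the whole gene had a log2 fold change of −0.27. HSD3B1, a dehydrogenase of steroid hormone synthesis, had 1 of its 2 transcripts at 7.05, 8.86 and 9.77 TPM in DSE and at 117, 135.5 and 288 TPM in BMI (limma adjusted p = 0.199), and the whole gene had a log2 fold change of −1.83 (SE 0.97). Neither of these 2 transcripts was separated the same way in another gland. Transcripts of PPP1R1B, a phosphatase inhibitor, and ATP2A2, a calcium pump of the endoplasmic reticulum, were listed at 0 in BMI epididymis and lay at 18.7 to 33.9 and 8.27 to 14.2 TPM in DSE, with a whole-gene log2 fold change of 1.49 and −0.11. The PPP1R1B transcript was separated the same way in 0 other glands and the ATP2A2 transcript in 1, the bulbourethral gland, at 7.97, 19.1 and 10.3 TPM in DSE and at 6.25, 0 and 0 TPM in BMI.

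Of 386 members tested in 26 gene lists of epididymal functions and cell types, 0 passed between the breeds, 7 had an unadjusted p below 0.05 (1.81%, against 1.88% of all genes), and 24 lay without overlap higher in DSE (6.22%, against 2.72%) and 5 higher in BMI (1.3%, against 2.57%). Ribosomal proteins were 20 of the 24. Over the 25 epididymal secreted proteins the median log2 fold change was −0.16 (−0.61 without DSE replicate 1, when the median of all genes was 0.21), and 0 were without overlap. CD52, a sperm surface antigen, was at 7.03, 14960 and 5410 TPM in DSE and at 11951, 2322 and 41561 TPM in BMI, and the lowest value was again that of DSE replicate 1. RNASE10, which sperm need for maturation, was at 10294 TPM in BMI replicate 2 and at most 20.1 TPM in the other 5.

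The breeds overlapped in 2 genes of steroid hormone action. SRD5A2, which makes dihydrotestosterone, was at 401, 10.01 and 31.8 TPM in DSE and at 31.4, 260 and 40.3 TPM in BMI. FKBP4, a chaperone of steroid receptors, was at 118, 150 and 166 TPM in DSE and at 162, 177 and 165 TPM in BMI.

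Among transport and redox genes, the 7 genes of the proton pump and acid secretion had a median of −0.14 (0.01 without DSE replicate 1) and the 11 of luminal water and ion transport a median of −0.20 (0.49 without it). ATP6V1C2, a subunit of the proton pump, was at 31.9, 48.5 and 64.5 TPM in DSE and at 49.1, 68.4 and 93.7 TPM in BMI. AQP1, a water channel, ranged from 14.6 to 140 TPM in DSE and from 6.28 to 353 TPM in BMI. The 26 genes of glutathione and peroxide metabolism had a median of −0.05 (0.15 without it), with GPX6 without overlap higher in DSE and GSTO1 without overlap higher in BMI. GPX4, which protects membranes and is structural in sperm, was at 294, 449 and 580 TPM in DSE and at 453, 618 and 712 TPM in BMI.

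Markers of other cells varied widely between the libraries of each breed. Smooth muscle markers had the highest median of all lists, 0.80 (1.37 without DSE replicate 1), with 11 of 12 higher in DSE by sign (49.9% of all genes were) and 0 without overlap, and their summed level was 4348, 29191 and 10340 TPM in DSE and 17218, 2703 and 6391 TPM in BMI. TAGLN, an actin-binding protein of smooth muscle, was at 1068, 6505 and 2574 TPM in DSE and at 4522, 579 and 1385 TPM in BMI. Sperm and spermatid markers had a median of −0.91 (−1.46 without it) with 0 of 11 higher in DSE by sign, and their summed level was 290, 25.6 and 112 TPM in DSE and 144, 1179 and 51.5 TPM in BMI. PRM1, a protamine of sperm chromatin, was at 744 TPM in BMI replicate 2 and at most 112 TPM in the others. The summed levels of both lists overlapped between breeds, and their part in the breed differences of single genes was not tested. With all libraries, endothelial markers had a median of 0.47, basal cell markers of 0.37, ciliated cell markers of −0.62, adipocyte markers of −0.06, fibroblast and matrix genes of −0.12, proliferation markers of −0.60 and 3 skeletal muscle markers of −1.24, the lowest. Without DSE replicate 1, where all genes had a median of 0.21, these were 0.89, 0.72, −0.19, 0.61, 0.39, −0.27 and −0.77 in that order, and the sperm list was the lowest. The medians of adipocyte and of fibroblast and matrix genes thus changed sign with that library.

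Among blood and immune lists the medians ran from −0.13 for complement to 0.37 for T and NK cell markers. Without DSE replicate 1 they ran from 0.08 for B cell and plasma cell markers to 1.29 for erythrocyte markers, with complement at 0.50, so neither end was kept. The breeds did not overlap in a macrophage marker and a plasma cell marker. CD68, a lysosomal protein of macrophages, was at 3.21, 14.5 and 29.04 TPM in DSE and at 73.6, 57.1 and 60.2 TPM in BMI (log2 fold change −2.36, limma adjusted p = 0.9999), although the macrophage list as a whole had a median of 0.02 (0.52 without DSE replicate 1). C1QA, a complement subunit made by macrophages, was at 17.2, 83.0 and 69.5 TPM in DSE and at 180, 72.2 and 14.1 TPM in BMI. MZB1, a protein of plasma cells, was at 2.55, 3.39 and 2.17 TPM in DSE and at 8.41, 27.3 and 8.70 TPM in BMI, although the list of B cell and plasma cell markers had a median of −0.11. JCHAIN, which joins immunoglobulins into polymers, overlapped between breeds, at 3.13, 10.9 and 7.63 TPM in DSE and at 12.6, 8.47 and 5.79 TPM in BMI. IFI6, an interferon-induced protein, was at 1232, 683 and 1387 TPM in DSE and at 676, 671 and 656 TPM in BMI, a separation of only 1.01 times between the nearest libraries. Interferon response genes had a median of 0.13 (0.48 without DSE replicate 1).

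Ribosomal protein genes were the list with the most separated members. Of 80 tested, 72 were higher in DSE by sign with a median of 0.27, and 20 (25%, against 2.72% of all genes) had all DSE libraries above all BMI libraries. The exception in the other direction was RPL3L, the striated muscle form of RPL3. Without DSE replicate 1 the count was 65 of 80 (81.2%, against 10.6% of all genes), and with TPM divided by size factors 17 of 80 (21.2%, against 3.07% of all genes). Their summed level was 133806, 186029 and 174060 TPM in DSE and 146410, 133394 and 120783 TPM in BMI, so the sum of DSE replicate 1 lay within the range of BMI. RPLP1 was at 6219, 9120 and 7844 TPM in DSE and at 6496, 5085 and 5142 TPM in BMI, and ribosomal protein genes move together by library, so their members are not independent. None of the 80 passed.

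Mitochondrially encoded proteins were higher in DSE by sign for 12 of 13 with a median of 0.35, but of 0.12 without DSE replicate 1, below the 0.21 of all genes. Heat shock and unfolded protein response genes were lower in DSE by sign for 16 of 18, as were 50.1% of all genes, with a median of −0.20 (−0.01 without DSE replicate 1, or −0.21 relative to all genes), and HSPA8, a constitutive chaperone, was without overlap at −0.69. Immediate early genes, which respond to handling of tissue, had a median of 0.14 and of 1.12 without DSE replicate 1. FOS was at 20.7, 595 and 559 TPM in DSE and at 1233, 71.8 and 80.3 TPM in BMI. Posterior HOX genes, which pattern the duct, had a median of 0.18 (0.55 without DSE replicate 1) with 0 without overlap.

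**Figure D4:**
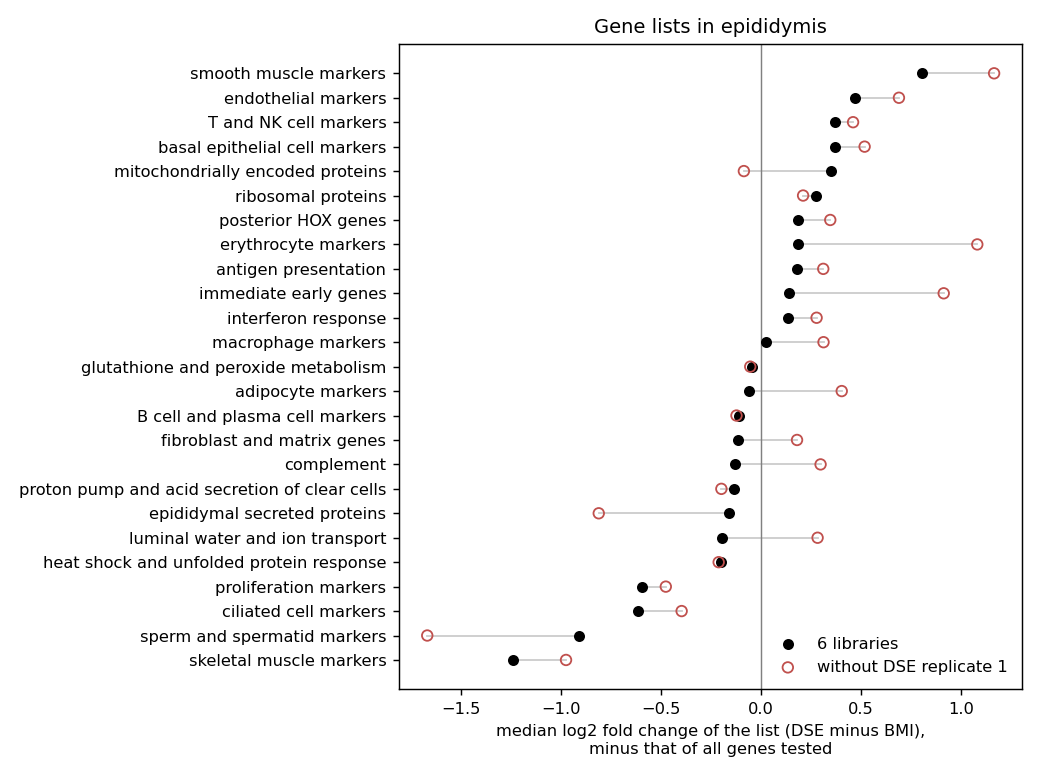
Median log2 fold change (DSE minus BMI) of the members of each gene list except that of steroid hormone action, minus the median of all genes tested, with 6 libraries (filled) and without DSE replicate 1 (open). Smooth muscle markers are the highest with all 6 libraries and sperm and spermatid markers move furthest down without the library, while ribosomal proteins stay near 0.27 and 0.21.

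In the 2 Iso-seq libraries, 231413 full-length reads in DSE and 458697 in BMI were counted on deposited isoforms, which is 42.7% and 67.1% of the full-length non-chimeric reads of each library, and with 1 library a breed they allow no test. Intervals are exact 95% binomial intervals and cover counting error only. CES1 on chromosome 6 had 24 reads in DSE and 10 in BMI, or 104 (66.5 to 154) against 21.8 (10.5 to 40.1) reads per 1000000. SH3BGRL2 had 9 and 82 reads, or 38.9 (17.8 to 73.8) against 179 (142 to 222) reads per 1000000. NUPR1 had 14 and 6 reads, or 60.5 against 13.1 per 1000000, and GPX6 6 and 0. Gaps as wide occurred in genes whose breeds overlapped in RNA-seq. ADAM7 had 2394 reads per 1000000 in DSE and 19959 in BMI, and NPC2 9870 and 818, while PTGDS was near equal at 130 and 131. How many of all genes differed this much between the 2 libraries was not counted. Per read counted on isoforms, 9 of the 20 genes differed in the direction of the RNA-seq libraries, 3 in the opposite one, and 8 had no read in either library. The opposite ones were CTSZ, with 38.9 reads per 1000000 in DSE and 26.2 in BMI, LRMDA, with 17.3 and 21.8, and SLA-1, with 0 and 1 read. The intervals overlapped for these 3 and for 5 of the 9, TDRD9, the CES1 scaffold copy, DRC7, MPV17L and LGALS12, which had 0 to 2 reads in each library. MPV17L had 0 and 1 read. Per 1000000 full-length non-chimeric reads, an alternative added after seeing the data, CTSZ turned to 16.6 in DSE against 17.5 in BMI, so that 10 genes had the direction of RNA-seq and 2 the opposite one. On that scale CES1 on chromosome 6 was at 44.3 against 14.6 and SH3BGRL2 at 16.6 against 120. For a count of 0, a limit of 3 reads was used, which is 12.96 per 1000000 reads counted on isoforms in DSE and 6.54 in BMI. SLA-1 in DSE and S100A2 in BMI were without a read, while their mean levels in RNA-seq were 191 and 109 TPM.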

How the data were processed

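Tissue of DSE and BMI boars was sequenced by the authors, who deposited TPM for each transcript of a merged annotation (Ensembl 107, PacBio isoforms and RefSeq, genome Sscrofa11.1) as given by salmon 1.9.0. The labels name rRNA depletion and the study's methods poly-T beads. The study's supplement lists the total reads of each library, but the reads behind a single TPM value are not given. Iso-seq counts of full-length reads per isoform were deposited by the authors without normalization. TPM was summed by gene identifier and used as log2(TPM + 1), so fold changes of low genes are understated. Features with at least 1 TPM in at least 3 of the 6 libraries were fitted with limma 3.58.1 (eBayes with trend, R 4.3.3), with breed alone as the term, and called where the adjusted p (Benjamini-Hochberg) was under 0.05 and the absolute log2 fold change 1 or more. An exact permutation test of 3 against 3 libraries cannot go below p = 0.1. The contrast with the other glands was fitted over 30 libraries in 10 groups. Named genes were the 10 in each direction with a symbol, no overlap, at least 2-fold difference and the smallest p, the 5 transcripts in each direction by the same rule, the 5 genes with a symbol and the smallest p in the contrast, and the 2 most abundant of each list. The count and median of the list of steroid hormone action are not reported here. Others were named after their values were seen. The members and lists were chosen with earlier results of these data known. Sequences were read from the RefSeq genome Sscrofa11.1 by a script. The scaffold was matched to the deposited annotation by 23 of its 79 exons, which have the same start and end on it, against 0 on the next scaffold. The tests were tried on simulated data. Alternatives were a pseudocount of 0.1, other filters, size factors, array weights, a replicate block, 1 fit of all libraries and leaving out each library. Alternatives added after seeing the data were no intensity trend, the first principal component as a term, 1 weight per gland, the CES1 copies summed, and Iso-seq reads per full-length non-chimeric reads of the library, whose totals were read from the study's supplement. Python 3.11.15 with pandas 2.3.3 was used for the rest.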

Additional observations from a re-analysis of the deposited data

Results flagged for a closer look

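The breed difference in epididymis differed from the mean of the other 4 glands for 26 genes by limma. Among the 20 genes described, these were MPV17L at −4.20, the CES1 copy on chromosome 6 at 3.98 and on the scaffold at 5.21, NPG3 at −3.57, S100A5 at −2.63, DACT2 at −1.74, SMIM9 at −1.77 and TMEM179 at −1.37, on the log2 scale of TPM + 1.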

How the results depend on the processing

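The count of 0 genes was found in each alternative except 1 fit of all 30 libraries, with 122 genes. At an unadjusted p below 0.05, the count of genes was 187 to 447 when a library was left out, 1012 with array weights and 738 with the first principal component as a term, against 288. For transcripts, 473 passed in that fit, 31 with array weights and 1 without the intensity trend, and leaving out a library gave 0 to 1. The contrast with the other glands gave 11 genes with 1 weight per gland, 11 with a pseudocount of 0.1, and 17 to 110 when a library was left out: 62, 79 and 110 without DSE replicates 1, 2 and 3, and 73, 70 and 17 without BMI replicates 1, 2 and 3. The replicate numbers did not pair the libraries, since same-numbered libraries deviated with correlations of −0.44, −0.59 and −0.17. With a replicate block, 0 genes (186 at an unadjusted p below 0.05), 0 transcripts and 21 genes of the contrast passed. Among the named genes no direction reversed. In 34 values the side of the threshold changed, 33 to passing and 1, S100A5 in the contrast with a pseudocount of 0.1, to an adjusted p of 0.266. Over its 10 alternatives that adjusted p ran from 1.51e-06 to 0.266. The cause of these changes was not tested. The median standard error of 0.46 on the log2 scale limits what 3 libraries a breed can show, and the reads behind a single TPM value are not given.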
